A study of Mus musculus with 4 samples.

Results

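The antibody genes measured in mouse colon are described here: the variable (V), joining (J) and constant (C) rows of the immunoglobulin heavy chain, kappa and lambda loci. A row was a member when its symbol starts with Igh, Igk or Igl followed by v, j, d, c, a, m, e or g (Ighmbp2 left out) and when it held at least 50 raw counts summed over the 4 libraries. Members were thus selected on their summed counts, and by this rule 165 of the 395 immunoglobulin rows in a table of 44788 rows were members. They were 73 heavy V, 4 heavy J, 7 heavy C, 68 kappa V, 4 kappa J, 1 kappa C, 3 lambda V, 2 lambda J and 3 lambda C rows. Of the other 230 rows, 119 held 0 counts, among them all 20 heavy D rows. That the members hold counts is therefore no result. Just inside the threshold lay Ighv1-47 with 50, Iglj2 with 51 and Ighv2-6 with 53 counts, and just outside it Ighv9-4 with 45, Ighv1-31 with 44 and Igkv4-51 with 43 counts.

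RNA was taken from whole colon of C57BL/6 mice, and 1 library was sequenced for each of 4 groups: wild type (WT) without treatment, a genotype labelled Card9-/- without treatment, WT after AOM/DSS, and the genotype labelled Card9-/- after AOM/DSS. AOM/DSS joins the mutagen azoxymethane (AOM) with the colon irritant dextran sulfate sodium (DSS) to give tumours in an inflamed colon. The treated mice had 10 mg/kg AOM on day 1 and, from 5 days later, 3 cycles of 7 days with 2% DSS of 36 to 50 kDa in the drinking water, and were killed on day 100. Untreated tissue is labelled day 0, so treatment and day of collection cannot be told apart. The sources used here do not give age, sex, the number of animals per library or the construction of the Card9 allele. Since each group is 1 library, nothing here measures the spread between mice, and the intervals hold counting error alone.

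The libraries held between 23022885 and 27706567 counts. Card9, an adaptor of myeloid cells, held 44 counts in untreated WT, 69 in the untreated library labelled Card9-/-, 116 in WT after AOM/DSS and 245 in the AOM/DSS library labelled Card9-/-, which goes against the label of both libraries. They are therefore called by their label throughout. The AOM/DSS library labelled Card9-/- also stood apart from the others, with a correlation of log values with them of 0.80 to 0.83 across genes, while the highest correlation among the others was 0.95. Its summed level of 5 smooth muscle genes was 1049 CPM (counts scaled to library size with TMM factors) against 5343 to 7079 CPM in the other 3 libraries, and that of 5 myeloid genes 1105 CPM against 330 to 385 CPM. The part of this tissue makeup in the results below was not tested. In bulk tissue, fewer antibody-producing cells and less antibody RNA per cell cannot be told apart.

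An antibody is built of heavy chains paired with kappa or lambda light chains. In developing B cells a V segment is joined to a J segment, in the heavy chain with a short D segment between them, so each B cell clone carries its own choice of segments. The C region sets the class: a naive B cell makes IgM and IgD, and class switching replaces these with IgG, IgE or IgA. In the gut, plasma cells of the mucosa mainly secrete IgA, which is joined by the J chain and carried across the epithelium by the polymeric immunoglobulin receptor.

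The J segments are shown because each rearranged antibody gene of a given chain carries 1 of them, whatever V segment it uses. The sequences are from GENCODE transcripts of release M21 on GRCm38, on the coding strand. The capitals mark the 5 bases TGGGG in the heavy chain and TTCGG in the light chains, which begin the conserved motif of the J region (searched on the coding strand only). The heavy J segments lie on chromosome 12 between 113428514 and 113429833, the kappa J segments on chromosome 6 between 70722562 and 70723927, and the lambda J segments on chromosome 16.
Ighj1: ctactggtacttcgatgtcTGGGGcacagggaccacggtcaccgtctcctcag
Ighj2: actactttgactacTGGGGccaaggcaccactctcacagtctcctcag
Ighj3: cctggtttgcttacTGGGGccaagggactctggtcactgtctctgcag
Ighj4: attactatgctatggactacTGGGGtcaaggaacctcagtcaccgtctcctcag
Igkj1: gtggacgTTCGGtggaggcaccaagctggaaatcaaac
Igkj2: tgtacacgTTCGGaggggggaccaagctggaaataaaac
Igkj3: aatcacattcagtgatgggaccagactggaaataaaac
Igkj4: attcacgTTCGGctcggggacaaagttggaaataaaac
Igkj5: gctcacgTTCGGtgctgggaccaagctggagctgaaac
Iglj1: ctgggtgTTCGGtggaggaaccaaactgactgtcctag
Iglj2: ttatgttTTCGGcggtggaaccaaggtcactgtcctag
Igkj3, shown after its values were seen, does not hold TTCGG, and its row held 1 count in the 4 libraries, against 1324 to 3834 counts for the other kappa J segments.

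The hinge exons of the IgG subclasses are shown because Ighg3, Ighg2c and Ighg2b had the largest ratios of all heavy C rows in the WT pair, and Ighg1 is set beside them. The capitals mark in-frame cysteine codons. Heavy chains are bonded to each other through cysteines of the hinge, but which of the marked ones do so was not examined. There were 4 in Ighg1 and in Ighg2b, 3 in Ighg2c and 1 in Ighg3. The exons lie on the minus strand of chromosome 12, Ighg3 at 113360529 to 113360576, Ighg1 at 113329844 to 113329882, Ighg2b at 113307261 to 113307326 and Ighg2c at 113288263 to 113288325.
Ighg3: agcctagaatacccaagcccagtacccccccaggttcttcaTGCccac
Ighg1: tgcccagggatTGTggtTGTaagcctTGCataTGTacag
Ighg2b: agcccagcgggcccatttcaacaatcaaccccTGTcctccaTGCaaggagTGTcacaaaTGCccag
Ighg2c: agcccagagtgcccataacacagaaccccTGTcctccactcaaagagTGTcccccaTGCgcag
The coding parts of Ighg2b and Ighg2c were 85.6% identical, and those of Ighg1 and Ighg3 74.1%, so reads of the subclasses differ at many bases. Iglc2 and Iglc3 were 96.2% identical, so their separate values are uncertain.

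All members together held 43247 counts in untreated WT (0.170% of the library), 65437 in the untreated library labelled Card9-/- (0.280%), 58626 in WT after AOM/DSS (0.255%) and 33006 in the AOM/DSS library labelled Card9-/- (0.119%). The untreated library labelled Card9-/- was thus the highest and the AOM/DSS library of the same label the lowest. In CPM, the members stood 1.57-fold higher after AOM/DSS than untreated in WT (95% interval 1.55 to 1.59). Between the libraries labelled Card9-/- they stood 2.89-fold lower after AOM/DSS (95% interval 2.85 to 2.93). Without treatment they were 1.76-fold higher in the library labelled Card9-/- than in WT (95% interval 1.73 to 1.78), and after AOM/DSS 2.58-fold lower (95% interval 2.55 to 2.61).

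These totals leave out 3 rows named for a whole locus, Igh, Igk and Igl. No source used here says how reads were divided between them and the segment rows. The Igh row alone held more counts than all members together in every library but WT after AOM/DSS. The Igh row held 61884 counts in untreated WT, 101672 in the untreated library labelled Card9-/-, 55028 in WT after AOM/DSS and 38950 in the AOM/DSS library labelled Card9-/-. In RefSeq it spans 113258768 to 116009954 on chromosome 12, which takes in the IgG hinge exons shown above. The levels of the heavy C rows below, IgG among them, are therefore those of the rows alone. With the locus rows added, a choice made after the data were seen, the WT ratio became 1.27 and the other 3 ratios kept their direction.

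In the WT pair the heavy chain constant regions had a larger ratio than any other kind of member, and 3 of the 4 IgG subclasses, Ighg3, Ighg2c and Ighg2b, exceeded the other heavy C rows there. Ighg2c, the C57BL/6 form of the IgG2a gene, held 99 counts in untreated WT (3.93 CPM), 801 in the untreated library labelled Card9-/- (36.9 CPM), 5430 in WT after AOM/DSS (249 CPM) and 369 in the AOM/DSS library labelled Card9-/- (11.7 CPM). WT after AOM/DSS thus stood above the other 3 libraries, and untreated WT below them. The row was 63.4-fold higher after AOM/DSS in WT (95% interval 52.0 to 78.1) and 3.17-fold lower in the libraries labelled Card9-/- (95% interval 2.79 to 3.59).

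Ighg2b, the gene of IgG2b, held 144 counts in untreated WT (5.71 CPM), 1230 in the untreated library labelled Card9-/- (56.6 CPM), 6743 in WT after AOM/DSS (309 CPM) and 2199 in the AOM/DSS library labelled Card9-/- (69.4 CPM). It had the same highest and lowest library as Ighg2c. It was 54.1-fold higher after AOM/DSS in WT (95% interval 45.9 to 64.3) but only 1.23-fold higher in the libraries labelled Card9-/- (95% interval 1.14 to 1.32).

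Ighg3, the gene of IgG3, held 4 counts in untreated WT (0.16 CPM), 139 in the untreated library labelled Card9-/- (6.40 CPM), 323 in WT after AOM/DSS (14.8 CPM) and 352 in the AOM/DSS library labelled Card9-/- (11.1 CPM). Here untreated WT was low and the 2 AOM/DSS libraries were close to each other. Ighg1, the gene of IgG1, held 175 counts in untreated WT (6.94 CPM), 69 in the untreated library labelled Card9-/- (3.18 CPM), 364 in WT after AOM/DSS (16.7 CPM) and 499 in the AOM/DSS library labelled Card9-/- (15.8 CPM). It was 2.40-fold higher after AOM/DSS in WT (95% interval 2.00 to 2.90) and 4.96-fold higher in the libraries labelled Card9-/- (95% interval 3.85 to 6.48). Of the 7 heavy C rows it was the 1 row past 2-fold higher in the latter pair, and the 1 row that was lower in the untreated library labelled Card9-/- than in untreated WT.

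Ighm and Ighd, whose products IgM and IgD sit on naive B cells, had another order. Ighm held 260 counts in untreated WT (10.3 CPM), 1138 in the untreated library labelled Card9-/- (52.4 CPM), 1269 in WT after AOM/DSS (58.2 CPM) and 769 in the AOM/DSS library labelled Card9-/- (24.3 CPM). Ighd held 9 counts in untreated WT (0.36 CPM), 140 in the untreated library labelled Card9-/- (6.44 CPM), 327 in WT after AOM/DSS (14.99 CPM) and 17 in the AOM/DSS library labelled Card9-/- (0.54 CPM). For Ighd the last library lay near untreated WT, 27.9-fold below WT after AOM/DSS (95% interval 17.2 to 48.6). The counts of Ighm per count of Ighd were 28.9 in untreated WT, 8.13 in the untreated library labelled Card9-/-, 3.88 in WT after AOM/DSS and 45.2 in the AOM/DSS library labelled Card9-/-.

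Igha, the gene of IgA, held only 107 counts in untreated WT (4.24 CPM), 293 in the untreated library labelled Card9-/- (13.5 CPM), 88 in WT after AOM/DSS (4.04 CPM) and 60 in the AOM/DSS library labelled Card9-/- (1.89 CPM). In GENCODE most of the secreted Igha transcript lies inside the span of the Igh row, with exons from 113258830 to 113260236, while an exon form that starts at 113258702 reaches beyond it and the membrane exon, from 113254830 to 113256397, lies outside. How reads of IgA were divided between the 2 rows was not tested, so the level of IgA is not read from the Igha row alone. The WT libraries differed by less than counting error (ratio 0.951, 95% interval 0.709 to 1.27). The libraries labelled Card9-/- differed 7.12-fold, with the AOM/DSS library lower (95% interval 5.38 to 9.57). Ighe, the gene of IgE, held 16 counts over the 4 libraries and was no member.

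**Figure D1:**
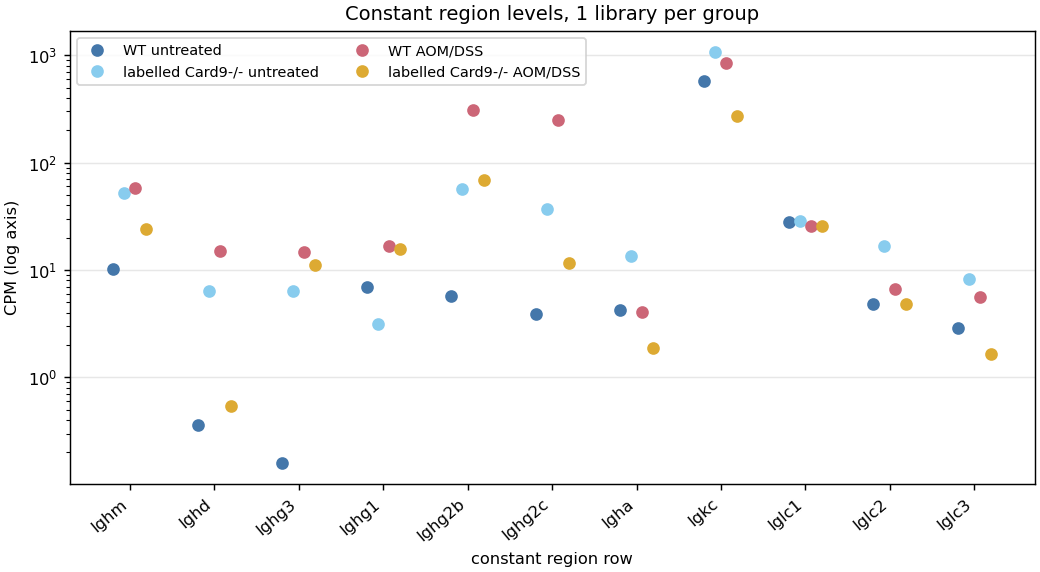
Level in CPM (log axis) of the 11 constant region members, each point 1 library and with no error bar since each group is 1 library. Ighg2b at 309 CPM and Ighg2c at 249 CPM in WT after AOM/DSS lie far above the other libraries, while Iglc1 lies between 25.6 and 28.6 CPM in all 4.

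As percent of the heavy constant region counts, the 4 IgG subclasses made up 52.9% in untreated WT (95% interval 49.4% to 56.4%), 58.8% in the untreated library labelled Card9-/- (57.2% to 60.3%), 88.4% in WT after AOM/DSS (87.9% to 88.9%) and 80.2% in the AOM/DSS library labelled Card9-/- (78.9% to 81.4%). Both AOM/DSS libraries thus had a larger IgG share than both untreated libraries. The Igh row, left out here, held 77.5, 26.7, 3.78 and 9.13 times the heavy constant region counts in the same order. The part of IgG reads in the Igh row was not tested. Igha made up 13.4% in untreated WT (95% interval 11.1% to 16.0%), 7.69% in the untreated library labelled Card9-/- (6.86% to 8.58%), 0.605% in WT after AOM/DSS (0.486% to 0.745%) and 1.41% in the AOM/DSS library labelled Card9-/- (1.08% to 1.81%). If all reads of the Igh row were instead counted with Igha, an extreme chosen after the data were seen, its share would be 98.9%, 96.7%, 79.2% and 90.3% in the same order. WT after AOM/DSS was the lowest library under either count.

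Within IgG, by counts, Ighg1 led in untreated WT with 41.5% of the IgG counts, and Ighg2b in the other 3 libraries with 54.9% (untreated, labelled Card9-/-), 52.4% (WT after AOM/DSS) and 64.3% (AOM/DSS, labelled Card9-/-). Ighg2c made up 42.2% in WT after AOM/DSS (95% interval 41.4% to 43.1%) but 10.8% in the AOM/DSS library labelled Card9-/- (95% interval 9.77% to 11.9%). Counts favour long rows, and the annotated exons of Ighg2b have 2678 bases against 1326 for Ighg2c. Per kilobase of exon, Ighg2c took 52.8% and Ighg2b 32.5% of the heavy constant signal in WT after AOM/DSS, and 31.3% against 23.8% in the untreated library labelled Card9-/-. In untreated WT Ighg2c took 19.6% against 17.8% for Ighg1. The leading subclass in these 3 libraries thus turns with the scale, while in the AOM/DSS library labelled Card9-/- Ighg2b led on both, with 43.9% against 14.9% for Ighg2c per kilobase.

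**Figure D2:**
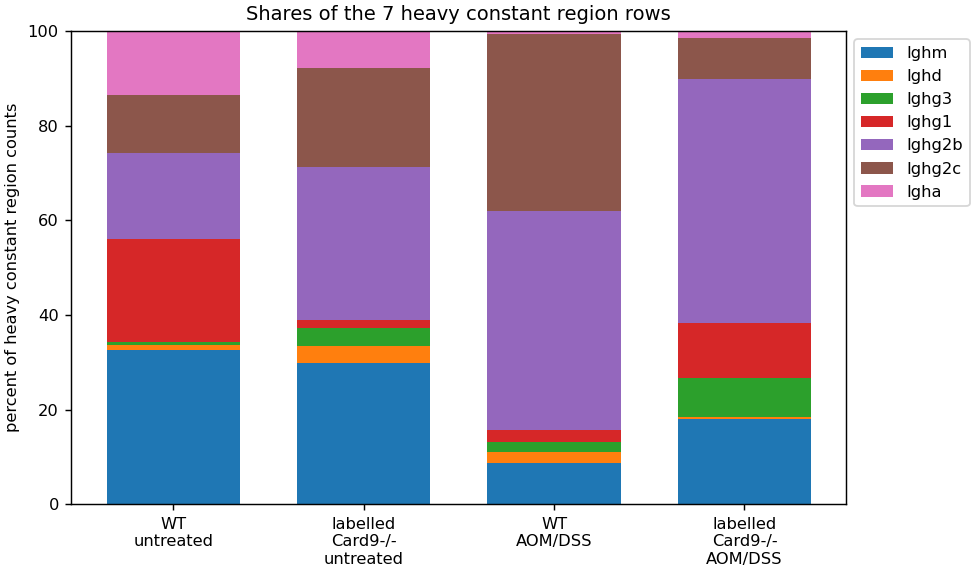
Stacked bars of the percent of heavy constant region counts in each of the 7 heavy C members, 1 bar per library. The IgG subclasses fill 88.4% of the bar of WT after AOM/DSS and 80.2% of the AOM/DSS bar labelled Card9-/-, where Ighg2c shrinks to 8.65%. All shares, that of Igha among them, are of these rows alone, without the Igh row.

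Among the light chains, Igkc differed between the libraries, while Iglc1, the most counted lambda constant row, differed little. Igkc, the only kappa constant region, held 14565 counts in untreated WT (578 CPM), 23406 in the untreated library labelled Card9-/- (1077 CPM), 18555 in WT after AOM/DSS (851 CPM) and 8625 in the AOM/DSS library labelled Card9-/- (272 CPM). It was 1.47-fold higher after AOM/DSS in WT (95% interval 1.44 to 1.50) and 3.96-fold lower in the libraries labelled Card9-/- (95% interval 3.86 to 4.06). Iglc1, the constant region of lambda 1, held 707, 621, 559 and 818 counts in the order untreated WT, untreated labelled Card9-/-, WT after AOM/DSS and AOM/DSS labelled Card9-/-, or 28.0, 28.6, 25.6 and 25.8 CPM. All 4 pair ratios of Iglc1 lay between 0.903 and 1.02, each with an interval that includes 1. Lambda therefore made up 5.83% of the light constant counts in untreated WT (95% interval 5.47% to 6.21%), 4.75% in the untreated library labelled Card9-/- (4.48% to 5.02%), 4.26% in WT after AOM/DSS (3.98% to 4.56%) and 10.6% in the AOM/DSS library labelled Card9-/- (9.99% to 11.2%).

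The lambda loci did not move as 1 unit. Iglc2 held 122, 365, 144 and 152 counts and Iglc3 73, 180, 123 and 52 counts in the same order of libraries, so both were highest in the untreated library labelled Card9-/-. Iglv2, a lambda V segment, held 33, 169, 37 and 116 counts, which was 22.9% of the lambda V counts in that library against 3.72% to 8.54% in the others. Iglv1 held 847, 559, 780 and 1230 counts and was the leading lambda V segment in each library. Unlike Iglc1 it was 1.51-fold higher after AOM/DSS in the libraries labelled Card9-/- (95% interval 1.36 to 1.67). Iglj2 took 44.4% of the lambda J counts in the untreated library labelled Card9-/-, from 24 counts, and 10.3% to 14.3% in the others.

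The J rows gave a second view of the heavy and kappa chains that does not rest on a constant region, but it too leaves out the locus rows. Heavy J counts summed to 3922 in untreated WT, 3964 in the untreated library labelled Card9-/-, 2422 in WT after AOM/DSS and 2404 in the AOM/DSS library labelled Card9-/-. Both AOM/DSS libraries thus held fewer heavy J counts than both untreated ones. In CPM, between the libraries labelled Card9-/-, the heavy J and heavy constant sums were both lower after AOM/DSS, 2.40-fold and 1.30-fold. The WT pair differed from this. In CPM the heavy J sum was 1.40-fold lower after AOM/DSS in WT (95% interval 1.33 to 1.47), while the heavy constant sum was 21.1-fold higher (95% interval 19.6 to 22.6). The heavy V sum, 318 and 332 CPM in the same WT pair, had a ratio of 1.04 (95% interval 1.01 to 1.08), and the Igh row a ratio of 1.03.

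Ighj3 had the largest heavy J difference in WT, with 1147 counts untreated and 414 after AOM/DSS (29.2% and 17.1% of heavy J counts), against 1351 and 531 in the libraries labelled Card9-/- (34.1% and 22.1%). It was 2.40-fold lower after AOM/DSS in WT (95% interval 2.14 to 2.69). Ighj4 held 773 counts untreated and 679 after AOM/DSS in WT, a ratio of 1.02 in CPM (95% interval 0.914 to 1.13). Ighj2 was the most counted heavy J row in all 4 libraries, with 34.7% to 39.9%, and Ighj1 ranged from 11.1% to 21.8%. Igkj1 made up 51.4% of the kappa J counts in untreated WT and 30.0% to 39.6% in the others. Igkj4 held 210, 537, 455 and 122 counts, and was the 1 kappa J row past 2-fold higher after AOM/DSS in WT. All 4 kappa J members were at least 2-fold lower after AOM/DSS in the libraries labelled Card9-/-.

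The V rows show how the counts of each chain, with the locus rows left out, were spread over its segments. Ighv1-81, a heavy V segment at 115920279 to 115920712 on chromosome 12, held 1251 counts in untreated WT, 4459 in the untreated library labelled Card9-/-, 1029 in WT after AOM/DSS and 403 in the AOM/DSS library labelled Card9-/-. It was the leading heavy V segment in the first 3 of these and took 41.6% of all heavy V counts in the untreated library labelled Card9-/- (95% interval 40.7% to 42.6%), against 15.6%, 14.2% and 6.07% in the others. In CPM it was 4.14-fold higher there than in untreated WT (95% interval 3.88 to 4.41) and 16.1-fold higher than in the AOM/DSS library of the same label (95% interval 14.6 to 17.9). Its nearest copy among the V rows was Ighv1-85, with 167 counts over the 4 libraries. The last 300 bases of both V transcripts are shown, with the 22 differing bases in capitals (GRCm38, minus strand; Ighv1-85 lies at 116000028 to 116000461).
Ighv1-81: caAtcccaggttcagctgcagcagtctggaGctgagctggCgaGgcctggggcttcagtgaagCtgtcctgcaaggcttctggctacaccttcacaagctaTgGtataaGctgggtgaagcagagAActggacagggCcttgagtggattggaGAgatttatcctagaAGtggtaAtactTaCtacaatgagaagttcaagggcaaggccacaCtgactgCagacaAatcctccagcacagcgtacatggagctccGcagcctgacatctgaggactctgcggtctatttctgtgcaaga
Ighv1-85: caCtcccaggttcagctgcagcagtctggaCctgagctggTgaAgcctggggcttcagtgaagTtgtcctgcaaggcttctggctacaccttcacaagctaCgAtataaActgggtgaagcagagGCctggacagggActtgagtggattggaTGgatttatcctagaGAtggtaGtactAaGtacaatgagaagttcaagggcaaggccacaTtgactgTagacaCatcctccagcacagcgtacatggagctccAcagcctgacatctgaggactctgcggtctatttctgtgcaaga

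Igkv1-110, a kappa V segment at 68270485 to 68271267 on chromosome 6, followed the same order of libraries at the top and bottom. It held 847 counts in untreated WT, 3529 in the untreated library labelled Card9-/-, 822 in WT after AOM/DSS and 394 in the AOM/DSS library labelled Card9-/-, or 7.36%, 19.8%, 7.08% and 5.53% of the kappa V counts. Its nearest copy, Igkv1-117 at 68121046 to 68121827, held 482, 1526, 641 and 254 counts, so the 2 rows were high in the same library. They differ at 10 of the last 300 bases shown here in capitals, and no source used here says how reads that match both were treated.
Igkv1-110: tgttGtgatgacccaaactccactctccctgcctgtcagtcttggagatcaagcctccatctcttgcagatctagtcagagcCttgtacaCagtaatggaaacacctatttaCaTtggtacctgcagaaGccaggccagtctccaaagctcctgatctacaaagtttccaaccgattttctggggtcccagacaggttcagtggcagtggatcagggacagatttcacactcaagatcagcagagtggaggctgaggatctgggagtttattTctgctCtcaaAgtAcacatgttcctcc
Igkv1-117: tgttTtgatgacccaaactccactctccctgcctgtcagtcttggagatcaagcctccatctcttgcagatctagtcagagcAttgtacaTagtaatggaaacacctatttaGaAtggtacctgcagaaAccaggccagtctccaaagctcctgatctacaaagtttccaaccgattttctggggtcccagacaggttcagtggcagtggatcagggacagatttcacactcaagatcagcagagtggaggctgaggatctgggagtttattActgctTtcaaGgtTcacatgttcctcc
Across the 143 V members with a GENCODE sequence, the nearest other V sequence was 92.0% identical in the median, at least 95% in 36, at least 98% in 4 and identical in 0.

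Igkv8-30 was high in both untreated libraries, with 1557 counts in WT (13.5% of kappa V) and 1041 in the library labelled Card9-/-, against 182 and 84 after AOM/DSS. Several other V segments were high in 1 library. In untreated WT, Ighv3-1 held 379 counts against 13, 23 and 12 in the others. Ighv10-1 likewise held 391 counts there against 54, 21 and 31. In the untreated library labelled Card9-/-, Igkv4-86 held 1344 counts (7.54% of kappa V) against 58 in untreated WT, 32 in WT after AOM/DSS and 13 in the AOM/DSS library of the same label. In WT after AOM/DSS, Igkv6-23 led the kappa V segments with 872 counts (7.51%) against 135, 388 and 114, and Igkv4-53 held 592 against 102, 82 and 46. Ighv8-8 held 532 counts there against 163, 49 and 171. In the AOM/DSS library labelled Card9-/-, Ighv5-2 held 343 counts against 5, 5 and 11, and Ighv1-39 held 370 against 64, 77 and 30. Igkv10-96 was shared by untreated WT (1444 counts, 12.6%) and the AOM/DSS library labelled Card9-/- (812 counts, 11.4%), and stood at 3.21% and 3.37% in the others.

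**Figure D3:**
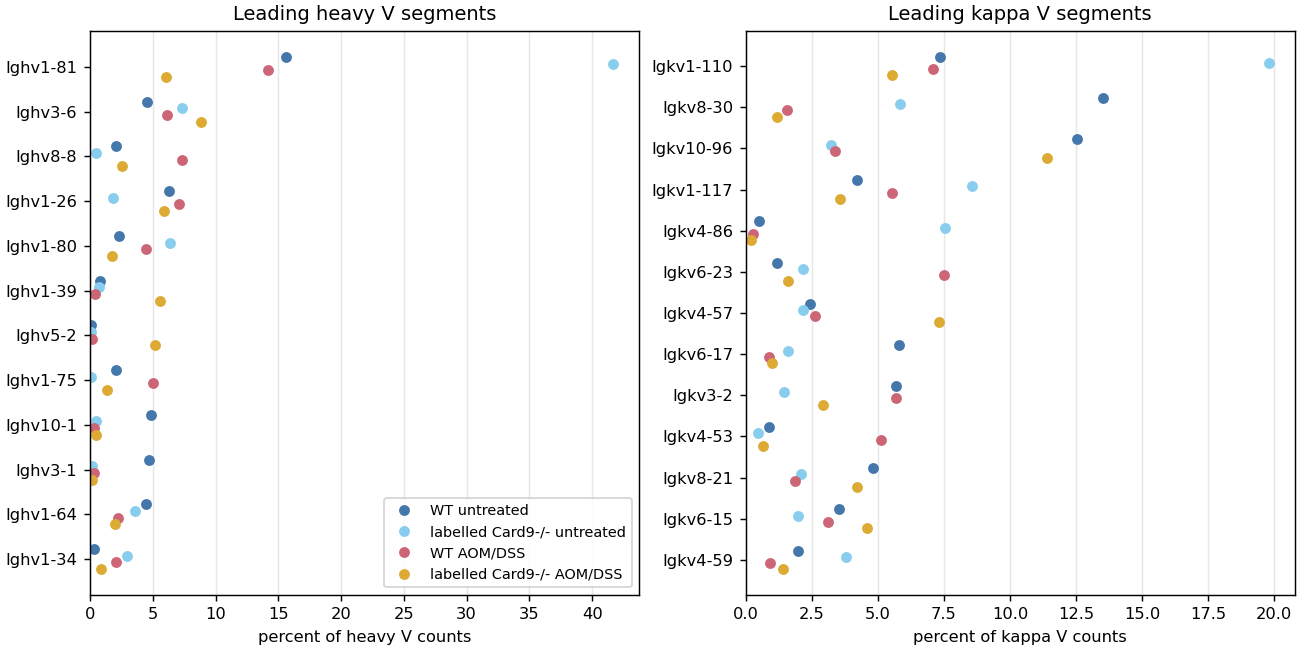
Percent of heavy V counts (left) and of kappa V counts (right) for every segment among the 5 most counted of at least 1 library, each point 1 library. Ighv1-81 reaches 41.6% and Igkv1-110 19.8% in the untreated library labelled Card9-/-, and several other segments, such as Ighv5-2 and Igkv4-86, stand out in 1 library.

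By family, the 39 members of Ighv family 1 held 58.8% of heavy V counts in untreated WT, 71.3% in the untreated library labelled Card9-/-, 66.0% in WT after AOM/DSS and 54.7% in the AOM/DSS library labelled Card9-/-. Family 5, with 9 members, held 5.53%, 3.60%, 5.46% and 11.5% in the same order, and family 8, with 2 members, was highest in WT after AOM/DSS at 9.94%. Among kappa families, Igkv family 1, with 6 members, held 13.2%, 30.5%, 14.7% and 11.5%, and family 8, also with 6, held 21.6%, 15.3%, 10.1% and 12.7%. Family 10, with 2 members, held 14.0% in untreated WT and 13.8% in the AOM/DSS library labelled Card9-/- but 3.76% and 4.78% in the others.

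How evenly the segments were used was summarised by the effective number, the number of equally used segments that would give the same Shannon entropy. For heavy V it was 34.5 in untreated WT, 16.3 in the untreated library labelled Card9-/-, 33.8 in WT after AOM/DSS and 42.8 in the AOM/DSS library labelled Card9-/-. It took 9, 3, 8 and 11 segments in that order to reach 50% of the heavy V counts. The low value rests mostly on Ighv1-81. Without the leading segment of each library the effective numbers were 39.7, 37.3, 37.6 and 44.4 in the same order. The untreated library labelled Card9-/- was then still the lowest, but by little. For kappa V the effective number was 29.8 and 29.0 in the untreated libraries of WT and of the label, and 40.6 and 40.7 in the AOM/DSS libraries. Percent overlap of heavy V usage between 2 libraries, the sum over segments of the smaller share, ran from 46.8% (the libraries labelled Card9-/-) to 66.3% (the AOM/DSS libraries), and for kappa V from 52.7% to 65.7%.

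Counted over rows, a member passed the size rule in a pair when its larger count was 50 or more and its values of log2(CPM + 1) differed by 2-fold or more. Adding 1 CPM makes differences of low rows look smaller. In WT, 41 of the 123 members with 50 counts were higher after AOM/DSS and 22 lower, where 4.08% and 3.88% of all rows with 50 counts were. In the libraries labelled Card9-/-, 8 of 125 were higher after AOM/DSS and 54 lower, against 14.1% and 15.9% of all rows. Without treatment, 46 of 122 were higher in the library labelled Card9-/- than in WT and 19 lower, against 4.46% and 3.37%. After AOM/DSS, 11 of 119 were higher in the library labelled Card9-/- than in WT and 52 lower, against 11.9% and 12.4%. The count of 11 higher members is a share near that of all rows. The median log2 ratio of all 165 members was 0.23, -0.55, 0.33 and -0.42 in these 4 pairs, and that of all rows with at least 50 summed counts lay between -0.03 and 0.01. Each library enters 2 of the pairs.

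V segments passed the size rule in both directions in all 4 pairs, as rows of the whole table did. In WT, 15 of the 47 heavy V members with 50 counts were higher after AOM/DSS and 12 lower, and 19 of 55 kappa V members were higher and 9 lower. In the libraries labelled Card9-/-, 5 of 51 heavy V members were higher after AOM/DSS and 14 lower, and 2 of 52 kappa V members were higher and 27 lower. The shares higher in that pair lie below the 14.1% of all rows, and 15.9% of all rows were lower. In the WT pair 4.08% of all rows were higher and 3.88% lower. Without treatment, 12 of 46 heavy V members were higher in the library labelled Card9-/- than in WT and 13 lower, and 23 of 55 kappa V members were higher and 6 lower. Of all rows, 4.46% were higher and 3.37% lower without treatment. After AOM/DSS, 7 of 44 heavy V members were higher in the library labelled Card9-/- and 16 lower. Of 53 kappa V members, 4 were higher and 27 lower. The shares higher in that pair, 15.9% and 7.55%, lie on either side of the 11.9% of all rows, and 12.4% of all rows were lower. The log2 ratios of kappa V members ran from -2.88 to 2.69 in WT and from -5.48 to 1.39 in the libraries labelled Card9-/-. Of the 41 members higher after AOM/DSS in WT, 13 were lower, 3 higher and 17 within 2-fold in the libraries labelled Card9-/-, and 8 had under 50 counts there. Of all 627 rows higher after AOM/DSS in WT, 78 (12.4%) were lower and 268 (42.7%) higher in the libraries labelled Card9-/-, against 31.7% and 7.32% of the 41 members.

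**Figure D4:**
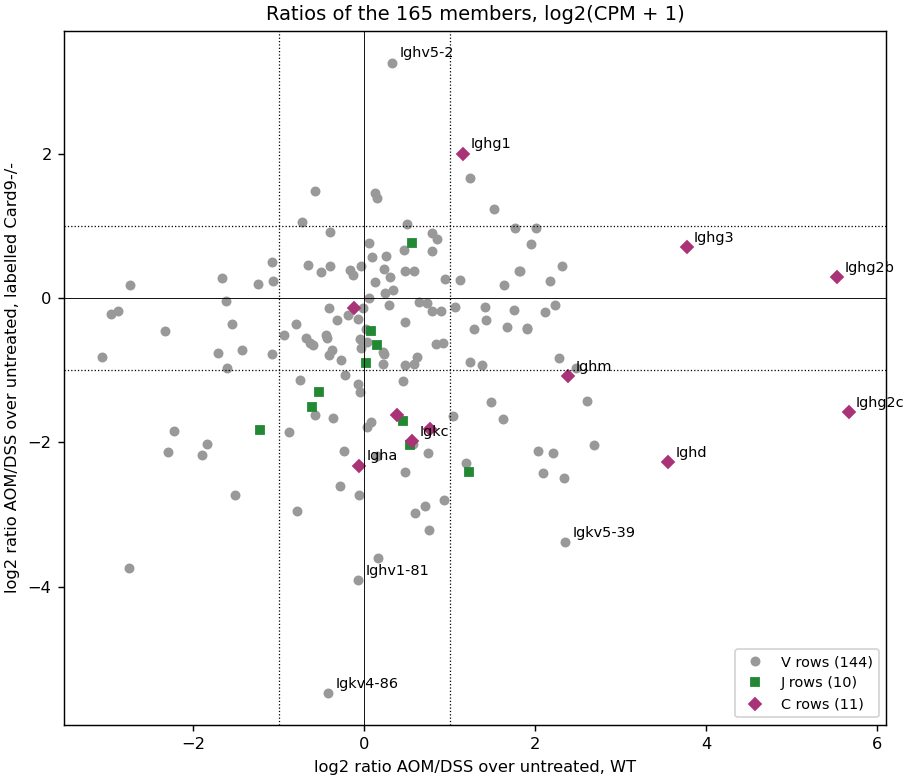
Log2 ratio of AOM/DSS over untreated on the log2(CPM + 1) scale for the 165 members, WT on the horizontal axis and the libraries labelled Card9-/- on the vertical axis, each point 1 row, with dotted lines at 2-fold. Ighg2b and Ighg2c lie far to the right at 5.53 and 5.67 in WT, with 0.29 and -1.58 in the libraries labelled Card9-/-, and V rows spread on all sides of 0.

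An additive model of genotype label and treatment over all 4 libraries (edgeR's quasi-likelihood test, Benjamini-Hochberg adjustment) was the only test the design allows, and its 1 residual degree of freedom holds the interaction. Of 18973 rows tested, 0 (0%) had an adjusted p under 0.05 for AOM/DSS and 0 (0%) for the genotype label. With an unadjusted p under 0.05 there were 1148 and 746 rows, among them 22 and 15 of the 158 members tested. The member with the smallest p for AOM/DSS was Igkv8-30, with a log2 effect of -3.53 (edgeR adjusted p = 0.348). For the genotype label it was Ighv4-1, with a log2 effect of 3.88 (edgeR adjusted p = 0.772). Ighg1 had a log2 AOM/DSS effect of 1.77 (edgeR adjusted p = 0.744) and Ighg2c of 2.13 (edgeR adjusted p = 0.952). DESeq2 called 340 and 256 rows, with 10 and 6 members among them, and edgeR without the count filter called 81 and 62 rows, with 1 and 0 members.

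The summed level of genes that mark B cells had the same order of libraries as Ighd and Ighm, and 8 of the 15 genes had that order singly. The other 7 were lowest in the AOM/DSS library labelled Card9-/- in place of untreated WT. Among these, Ebf1 was highest in untreated WT (8.57 CPM). Cd79b and Spib were highest in the untreated library labelled Card9-/- (20.9 and 20.7 CPM). Of 15 B cell genes, 13 were at least 2-fold higher after AOM/DSS in WT and 0 lower, and 13 were lower and 0 higher in the libraries labelled Card9-/-. Without treatment 13 were higher in the library labelled Card9-/- than in WT, and after AOM/DSS 14 were lower. Their summed level was 118 CPM in untreated WT, 292 in the untreated library labelled Card9-/-, 375 in WT after AOM/DSS and 121 in the AOM/DSS library labelled Card9-/-, and 0 of the 15 genes was at 0 in any library. Ms4a1, which encodes CD20, held 16, 145, 268 and 43 counts in that order, and Cd79a, a signalling chain of the B cell receptor, 75, 517, 575 and 156. The part of B cell number in the values of the members was not tested.

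Plasma cell genes differed less. Of 14 genes, 4 passed the size rule as higher and 0 as lower after AOM/DSS in WT, and 1 was higher and 4 lower in the libraries labelled Card9-/-. Their summed level ran from 1513 to 1753 CPM, and several (Xbp1, Sdc1, Txndc5) are also made by epithelium. Mzb1, a chaperone of antibody assembly, stood at 4.32, 18.7, 18.2 and 4.29 CPM in the order untreated WT, untreated labelled Card9-/-, WT after AOM/DSS and AOM/DSS labelled Card9-/-. Jchain, which links IgA and IgM into polymers, stood at 330, 499, 286 and 159 CPM. Mzb1 was high in the 2 libraries with high B cell genes, and Jchain was highest in the untreated library labelled Card9-/-, as the Igh row was. Of 7 precursor B cell genes, Rag1, Igll1 and Vpreb2 were at 0 in all 4 libraries, and the list summed to at most 1.98 CPM.

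**Figure D5:**
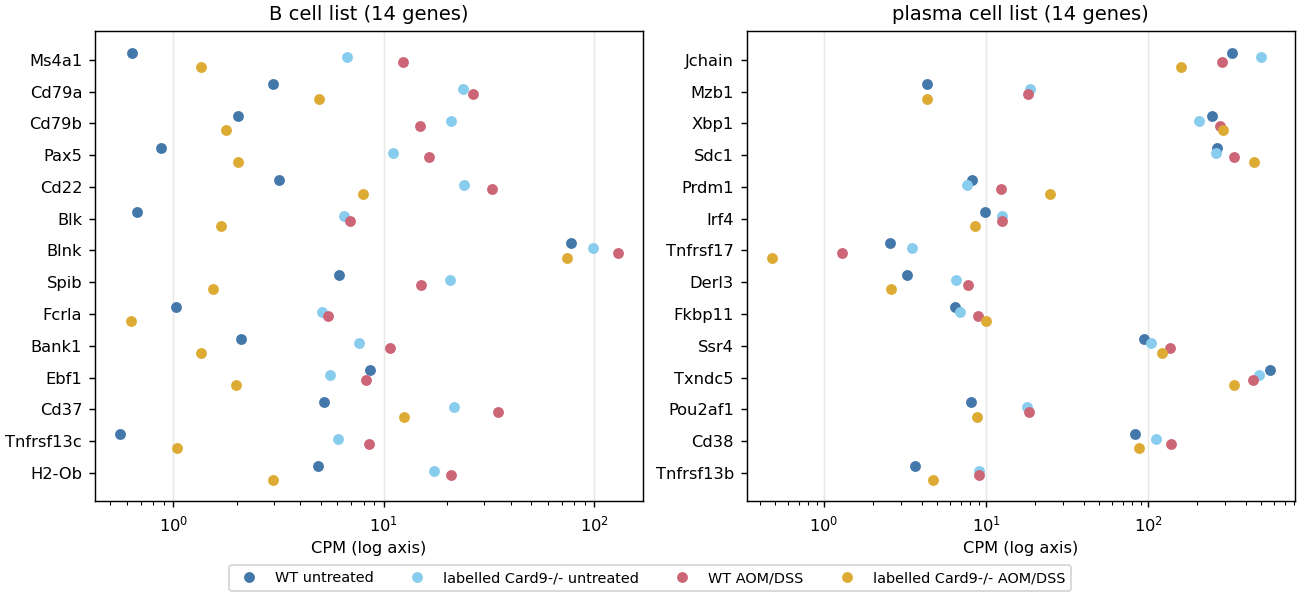
Level in CPM (log axis) of 14 of the 15 B cell genes (left) and the 14 plasma cell genes (right), each point 1 library. In the B cell list WT after AOM/DSS and the untreated library labelled Card9-/- lie to the right for most genes, with summed levels over the list of 375 and 292 CPM against 118 and 121 CPM, while the plasma cell genes spread less.

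The follicle and germinal centre list held 12 genes, 9 of them with 50 counts in the 4 libraries. Of these, 5 were higher and 1 lower after AOM/DSS in WT, and 0 higher and 4 lower in the libraries labelled Card9-/-. Cr2, the complement receptor of B cells and follicular dendritic cells, held 8, 200, 296 and 44 counts in the same order. Of the 19 class switching genes, 12 had 50 counts. In WT 0 of them were higher and 0 lower after AOM/DSS, and in the libraries labelled Card9-/- 4 were higher and 1 lower. For this list and those around it, the shares of all rows are 4.08% higher and 3.88% lower in the WT pair but 14.1% and 15.9% in the labelled Card9-/- pair. Ifng, a cytokine that directs switching to IgG2 classes in mice, held 1, 0, 8 and 101 counts.

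Among 15 genes of antibody transport and Fc receptors, 14 had 50 counts. After AOM/DSS 2 were higher and 0 lower in WT, and 8 were higher and 5 lower in the libraries labelled Card9-/-. Pigr, the epithelial receptor that carries IgA and IgM into the gut lumen, stood at 3978, 7251, 3391 and 1210 CPM in the order used above. Its highest and lowest libraries were those of the Igh row and of Igkc. The summed level of 5 epithelial genes was 7386, 8446, 8702 and 6277 CPM, so it was lowest in the same library as Pigr. The part of epithelium in the values of Pigr was not tested. The activating receptor Fcgr4, which binds IgG2 classes, stood at 3.89, 4.65, 7.84 and 44.3 CPM, and was thus high where the myeloid genes were. Of 11 genes of plasma cell homing, 4 were higher and 0 lower after AOM/DSS in WT, and 2 higher and 3 lower in the libraries labelled Card9-/-. Ccl28, the colon chemokine that draws IgA plasma cells, stood at 52.1, 115, 60.0 and 27.6 CPM, and Ccr10, its receptor, held 34, 68, 14 and 6 counts.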

How the data were processed

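The authors deposited raw counts of reads per gene, with no scaling, for 4 libraries of mouse colon RNA, prepared with an Ion Proton kit per the labels' protocols. Per the submitters' processing notes the build was GRCm38 (mm10). The aligner, counter, annotation and strand handling are not stated in the sources used here, so reads of overlapping rows cannot be told apart. In 27 rows the symbol had become a date, and 0 columns belonged to no sample. CPM were computed with TMM factors from edgeR 4.0.16 in R 4.3.3, and shares in Python 3.11.15. Exact 95% intervals (Clopper-Pearson) cover counting error only, because no group was replicated. The reads carry no molecular identifiers, so copies of the same molecule cannot be told apart and the intervals may be too narrow even for counting error. Exon positions, lengths and sequences came from GENCODE M21, which matched all 165 members. The additive fit used filterByExpr and was tested on simulated data.

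The members, gene lists and rules were chosen with earlier results of these data known. Named rows were every C and J member, the 5 leading heavy and kappa and the 3 lambda V members of each library, the 5 V members with the highest and the 5 with the lowest ratio of each pair, the rows at the threshold, and genes of the lists. Igkj3, Ighe, Ighv1-85 and Ighv4-1 were named after their values were seen. Alternatives were other size factors, thinning, pseudocounts, count minimums, row lengths, the whole-locus rows and DESeq2 1.42.0. Promoters of V segments were not analysed here. Some genes of the lists are not reported here.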

Additional observations from a re-analysis of the deposited data

Results flagged for a closer look

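After AOM/DSS, 13 members were at least 2-fold higher in WT and at least 2-fold lower in the libraries labelled Card9-/-. The 9 of them that belong to the named rows are given here. With 1 library per group the differences were not tested. The difference (labelled Card9-/- minus WT) was -7.247 for Ighg2c, -5.835 for Ighd and -3.466 for Ighm among the constant regions. It was -3.635 for Igkj4 and -4.51 for the heavy segment Ighv1-34. Among kappa V segments it was -5.729 for Igkv5-39, -4.831 for Igkv3-10, -4.725 for Igkv6-23 and -4.031 for Igkv4-72. The B cell genes had the same opposite signs, with median log2 ratios of 2.38 in WT and -1.79 in the libraries labelled Card9-/-.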

How the results depend on the processing

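Of 172 recomputed summary values 126 stayed within counting error or, for numbers of members and effective numbers, within 1.5 times. The other 46 moved. Among these summary values, a change of direction was looked for only in the ratios of all members, and none of these reversed. The 4 ratios of all members (WT pair, labelled Card9-/- pair, untreated pair, AOM/DSS pair) were 1.54, 0.363, 1.71 and 0.402 with DESeq2 size factors, and 1.50, 0.425, 1.65 and 0.468 with library totals, which put the median of all rows at 0.22 and 0.21 log2 in the labelled Card9-/- and AOM/DSS pairs. With upper-quartile factors the last 3 were 0.334, 1.73 and 0.372. With the whole-locus rows, an alternative chosen after seeing the data, they were 1.27, 0.292, 1.84 and 0.422. In the library order untreated WT, untreated labelled Card9-/-, WT after AOM/DSS and AOM/DSS labelled Card9-/-, the share of all counts was 0.166%, 0.274%, 0.248% and 0.114% with at least 200 counts per member, 0.189%, 0.310%, 0.283% and 0.123% without rows above 1% of a library, and 0.493%, 0.853%, 0.599% and 0.305% with the locus rows. Igha took 10.5%, 5.68% and 0.425% per kilobase of exon in the first 3 libraries. With the Igh row counted as Igha, also chosen after seeing the data, it took 98.9%, 96.7%, 79.2% and 90.3%. The effective number of heavy V segments in the untreated library labelled Card9-/- was 37.3 without Ighv1-81.

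With a pseudocount of 5 CPM in place of 1, which shrinks low rows, 18 members were higher and 11 lower after AOM/DSS in WT, 2 were higher in the labelled Card9-/- pair, 5 were lower in the untreated pair, and 2 were higher and 26 lower in the AOM/DSS pair. With at least 200 counts per member, 6 were higher in the AOM/DSS pair, since fewer rows were counted. The additive fit called 81 rows for AOM/DSS and 62 for the genotype label without the count filter, and 340 and 256 with DESeq2; the cause was not tested. Of 1764 recomputed ratios of 63 named members, 1714 stayed on their side of 2-fold. A change of direction was looked for only in ratios that passed the size rule, and 0 of these reversed. Ighm in the labelled Card9-/- and AOM/DSS pairs fell short of 2-fold with library totals (log2 -0.79 and -0.96). No paired analysis was possible because each group is 1 library.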
